A study of Mus musculus with 3 samples.

Results

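The 40 genes described here are 20 genes of DNA replication (the S members, Mcm2 to Chaf1b) and 20 genes of mitosis (the G2M members, Mki67 to Nusap1), taken by name from a published count table of 27998 genes in 9562 single cells. All 40 had counts and all 40 passed the filter on low genes in each comparison. They are described as levels and as shares of cells across the 7 cell clusters that the authors numbered 0 to 6.

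The cells were endothelial cells sorted from hearts of adult female mice with a GFP label. The sort took cells positive for GFP, CD31 and VE-Cad and negative for CD41, CD45, PDGFRA and PDGFRB. They were profiled fresh (0 h) or re-sorted as GFP+ CD31+ VE-Cad+ PDGFRA- cells after 24, 48, 72 and 96 h of co-aggregate culture with Mesp1-derived PDGFRA+ stromal cells (PSCs) of the E11.5 aorta-gonad-mesonephros region. The co-aggregates were held in serum medium with IL-3, SCF and Flt3L. All time points were pooled before 10x Genomics 3' v3 libraries were made, as pools A, B and C, so fresh and cultured cells could not be told apart. Barcodes carry a library suffix from 1 to 3 that could not be tied to a pool or to a time point. The cells therefore count as 1 sample, no P values are given, and the 95% intervals cover counting error only. The values by library suffix show the spread over 3 libraries.

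A dividing cell copies its DNA in S phase and separates the copies in mitosis. Genes of S phase are switched on at the end of G1, when cyclin D-CDK4/6 and cyclin E-CDK2 inactivate the RB pocket proteins and release E2F factors. Genes of G2 and mitosis peak later and depend on a CHR element and CCAAT boxes that bind the MuvB complex with B-MYB and FOXM1, and NF-Y. Most endothelial cells of the adult heart are quiescent, whereas blood progenitors divide often.

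The promoters below were searched for sequence features by which the 2 lists are known to differ. They were read from RefSeq on GRCm38.p6, 5' to 3' on the strand of the gene. Each runs from 250 bases before to 50 bases after the start of the gene. Cdc45 and Rrm2 (S) and Ccnb1, Aurka and Cenpf (G2M) had the largest ratios of highest to lowest cluster level among the members of their list whose promoter held a word searched. Mcm6 was added because its promoter holds E2F words, which those of Cdc45 and Rrm2 lack. Of the words searched, Cdc45 holds those of CHR and CCAAT, and Rrm2 and Ccnb1 hold CCAAT alone. Capitals mark matches to the words searched on both strands.
Mcm6, chr1:128359656-128359955, minus strand: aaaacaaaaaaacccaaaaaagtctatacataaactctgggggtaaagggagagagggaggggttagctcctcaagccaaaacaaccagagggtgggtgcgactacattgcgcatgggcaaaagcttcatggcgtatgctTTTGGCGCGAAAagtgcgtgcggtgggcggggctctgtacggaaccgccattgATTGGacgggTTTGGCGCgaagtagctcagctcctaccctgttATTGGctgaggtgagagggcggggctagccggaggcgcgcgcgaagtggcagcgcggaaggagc
Cdc45, chr16:18811923-18812222, minus strand: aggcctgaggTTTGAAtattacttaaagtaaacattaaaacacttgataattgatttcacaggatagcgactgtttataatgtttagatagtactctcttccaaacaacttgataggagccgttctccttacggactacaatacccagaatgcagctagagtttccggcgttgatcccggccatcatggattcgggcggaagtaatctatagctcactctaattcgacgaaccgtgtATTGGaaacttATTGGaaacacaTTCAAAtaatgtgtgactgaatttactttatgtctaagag
Rrm2, chr12:24708004-24708303, plus strand: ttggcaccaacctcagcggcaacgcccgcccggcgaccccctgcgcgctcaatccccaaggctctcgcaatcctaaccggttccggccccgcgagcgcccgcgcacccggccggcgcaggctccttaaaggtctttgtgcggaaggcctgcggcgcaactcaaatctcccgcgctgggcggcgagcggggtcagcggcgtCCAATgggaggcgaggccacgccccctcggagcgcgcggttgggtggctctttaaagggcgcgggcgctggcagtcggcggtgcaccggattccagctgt
Ccnb1, chr13:100786437-100786736, minus strand: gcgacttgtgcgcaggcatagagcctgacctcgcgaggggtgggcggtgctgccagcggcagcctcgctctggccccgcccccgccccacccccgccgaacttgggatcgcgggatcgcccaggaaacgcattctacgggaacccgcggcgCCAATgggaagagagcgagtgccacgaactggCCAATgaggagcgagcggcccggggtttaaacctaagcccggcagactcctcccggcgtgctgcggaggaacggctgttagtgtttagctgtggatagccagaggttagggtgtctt
Aurka, chr2:172370521-172370820, minus strand: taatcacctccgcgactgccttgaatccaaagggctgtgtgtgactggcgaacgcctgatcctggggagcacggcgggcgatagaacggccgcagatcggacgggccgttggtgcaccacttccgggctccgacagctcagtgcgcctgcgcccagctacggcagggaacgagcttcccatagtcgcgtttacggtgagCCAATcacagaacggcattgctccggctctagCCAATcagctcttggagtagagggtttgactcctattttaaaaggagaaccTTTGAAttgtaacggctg
Cenpf, chr1:189688037-189688336, minus strand: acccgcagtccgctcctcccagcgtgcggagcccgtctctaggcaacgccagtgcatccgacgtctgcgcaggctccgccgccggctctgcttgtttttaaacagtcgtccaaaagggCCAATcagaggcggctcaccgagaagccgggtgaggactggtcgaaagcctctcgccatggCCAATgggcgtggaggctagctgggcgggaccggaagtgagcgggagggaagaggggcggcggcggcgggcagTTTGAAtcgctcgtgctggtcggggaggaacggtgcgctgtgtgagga

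The words were TTTCCCGC, TTTCGCGC, TTTGCCGC and TTTGGCGC for E2F, TTTGAA and TTCGAA for the CHR, and CCAAT. E2F words on opposite strands can overlap, as at TTTGGCGCGAAA in Mcm6, and TTCGAA reads the same on both strands. A promoter was given for 34 of the 40 members, 17 of each list; Mcm4, Gins2, Ccne2, Ccna2, Aurkb and Tpx2 had none. An E2F word was found in 7 of 17 S members (41.2%) and in 1 of 17 G2M members (5.88%), Cdk1, against 2.6% of 27025 genes. The 7 were Mcm3, Mcm5, Mcm6, Mcm7, Cdc6, Cdt1 and Uhrf1. A CHR word was found in 13 of 17 G2M members (76.5%) and in 4 of 17 S members (23.5%), against 21.7% of genes. All 13 G2M promoters with a CHR word also held CCAAT, and the pair occurred in 8.61% of genes. Birc5 and Nusap1 held none of the words, and Ccnb1 and Cenpe held CCAAT alone. Other forms of these elements were not searched, so a promoter without a word may still hold the element. These matches describe letters in a 300-base window and do not show that a factor was bound.

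Depth differed between the clusters. The table held 252339042 UMIs (unique transcript molecules), with median counts per cell from 7875 in cluster 1 to 36065.5 in cluster 5, and 13440.5 to 38312 by library suffix. Levels are therefore given as UMIs per 10,000 UMIs of a cluster, and shares of cells after each cell was thinned to 5000 UMIs, which left out 90 cells, 54 of them of cluster 1. In all, 13 barcodes occurred in 2 libraries. Cluster sizes were 728, 799, 5396, 239, 518, 1572 and 310 cells for clusters 0 to 6, and every cluster held cells of all 3 library suffixes.

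The clusters were checked against marker genes. Endothelial genes (Cdh5, Pecam1, Kdr, Egfl7, Emcn and Tie1) summed to 42.1, 42.5 and 30.8 UMIs per 10,000 in clusters 0, 1 and 2 and to 3.47 to 5.73 elsewhere, so the label of endothelium was borne out in these 3 clusters only. All 5 arterial genes were over 2-fold higher in cluster 0 than in all other cells, although Dll4 was at 1.71 there and 2.05 in cluster 1. Cluster 3 was highest in 6 of 6 germ or pluripotent cell genes (Dppa5a 24.6), cluster 4 in 5 of 6 stromal genes, cluster 5 in 5 of 5 granulocyte and 6 of 6 macrophage genes, and cluster 6 in 5 of 5 megakaryocyte genes (Pf4 167). The sixth stromal gene, Dcn, was at 1.39 in cluster 4 and 2.35 in cluster 1. Cluster 1 also held erythroid, macrophage and stromal transcripts, at summed levels of 4.09, 4.06 and 2.57 per 10,000. Only 1 of 4 erythroid, 1 of 6 macrophage and 1 of 6 stromal genes was over 2-fold higher there than in all other cells. Of the stromal sum Dcn held 2.35, and the other stromal genes were at 0.0725 or below. Cluster 4 held cardiomyocyte transcripts at 3.31, and clusters 5 and 6 held erythroid transcripts at 2.15 and 2.97. The part of these transcripts in the member levels of their clusters was not tested. The clusters were drawn by the authors from the whole transcriptome, these 40 genes included, so a difference between clusters is a description and not a test.

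Cell cycle genes were lowest in cluster 1, next lowest in the arterial cluster 0, and high in the other 5 clusters. The 20 S members summed to 14.6, 6.73, 22.2, 24.8, 21.4, 26.3 and 18.8 UMIs per 10,000 in clusters 0 to 6. The 20 G2M members summed to 22.3, 6.10, 37.3, 39.0, 33.7, 36.6 and 35.5. In every library suffix, clusters 1 and 0 lay below all other clusters for both sums and did not overlap with each other. By library suffix the S sum was 7.14, 6.89 and 6.01 in cluster 1 and 14.3, 15.1 and 14.5 in cluster 0, with no library of the other clusters under 18.2. The G2M sum was 4.89, 9.76 and 5.33 in cluster 1 and 23.5, 22.4 and 20.9 in cluster 0, with no other cluster under 31.4 in any library. Library suffix 2 thus stood above the other two in cluster 1.

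**Figure D1:**
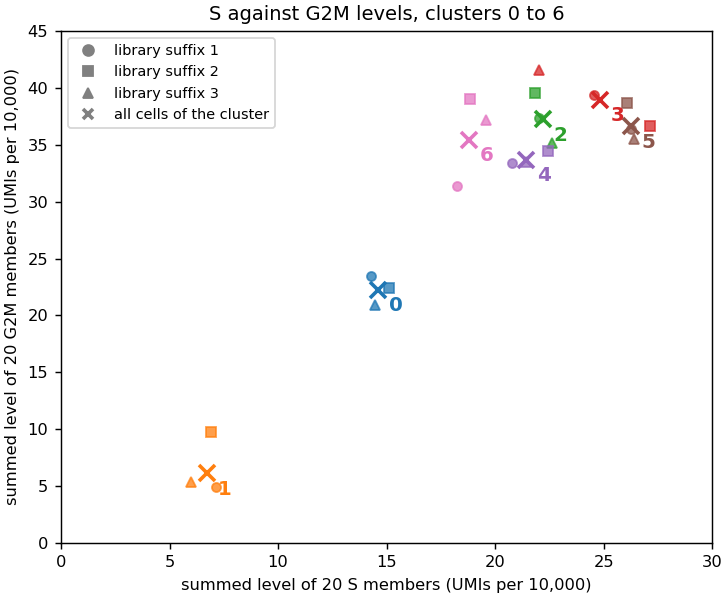
Summed level of the 20 S members (x axis) and of the 20 G2M members (y axis), in UMIs per 10,000 UMIs; colours and numbers give the cluster, symbols the library suffix and crosses the whole cluster. Cluster 1 lies at 6.73 and 6.10, cluster 0 at 14.6 and 22.3, and clusters 2 to 6 lie at 18.2 and 31.4 or above in every library.

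Among clusters 2 to 6 the order was less fixed. For S members, cluster 5 (26.1 to 26.4 over libraries) lay above clusters 2 (21.8 to 22.6), 4 (20.8 to 22.5) and 6 (18.2 to 19.6), while cluster 3 (22.0 to 27.1) overlapped with clusters 2, 4 and 5. For G2M members all 5 ranges overlapped with at least 1 other, and cluster 6 spanned 31.4 to 39.0. The ratio of the G2M to the S sum was 1.52, 0.907, 1.68, 1.57, 1.57, 1.40 and 1.88 in clusters 0 to 6. It was highest in cluster 6 (by library 1.72, 2.07 and 1.90) and lowest in cluster 1 (0.684, 1.42 and 0.887), where it varied most between libraries. In library suffix 2, however, cluster 3 was lowest at 1.35, below cluster 1.

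Each of the 40 members was lowest in cluster 1. This held in all 3 library suffixes for 18 of 20 S members and for 20 of 20 G2M members; Pcna and Uhrf1 were the exceptions, each lowest there in 2 of 3. The highest cluster varied: among S members it was cluster 3 for 9, cluster 5 for 9 and cluster 2 for 2, and among G2M members it was cluster 3 for 10, cluster 2 for 6 and cluster 5 for 4. For 12 S and 10 G2M members the 95% interval of the highest cluster stood apart from that of the next. The ratio of highest to lowest level ran from 2.43 (Slbp) to 17.2 (Ccne1) among S members, with a median of 4.64, and from 4.74 (Kif23) to 14.8 (Ccnb1) among G2M members, with a median of 6.91.

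**Figure D2:**
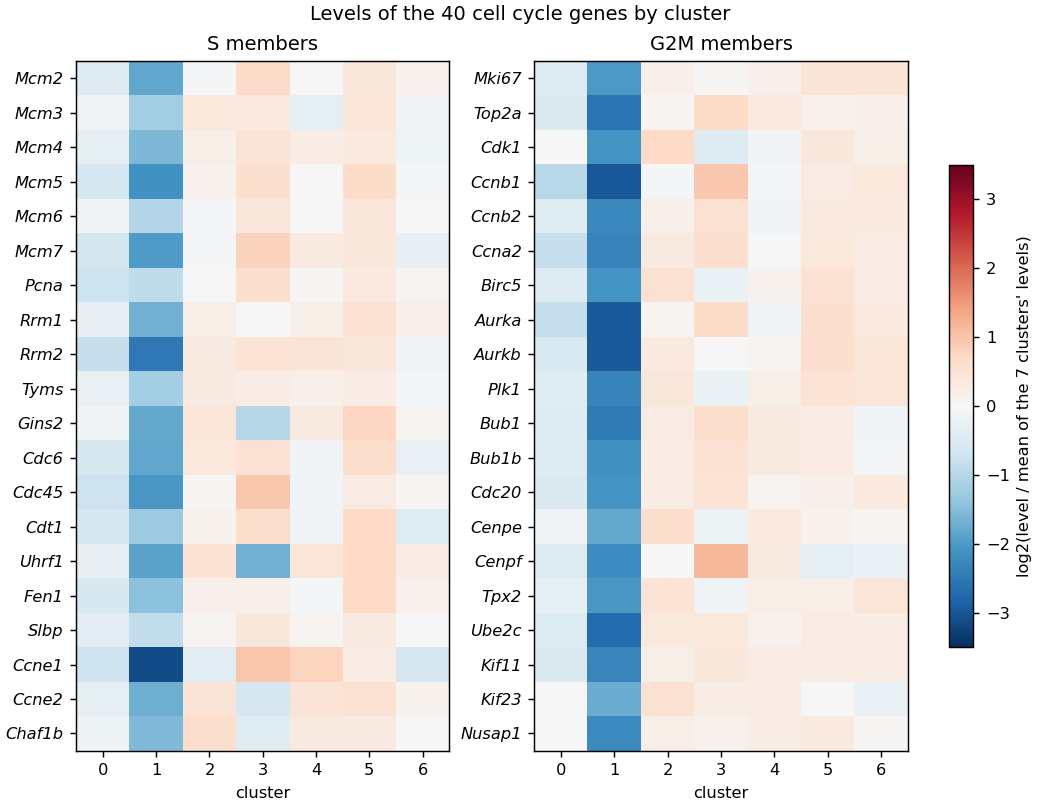
Levels of the 40 members in clusters 0 to 6, each as the log2 of its level over the mean of its 7 cluster levels (blue, below that mean; red, above). Column 1 is blue for all 40 genes, and column 3 mixes red cells (Cenpf, Ccne1, Cdc45 and Ccnb1) with blue cells (Uhrf1 and Gins2).

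The replicative helicase MCM2-7 unwinds DNA at forks. Its 6 genes summed to 6.43, 2.86, 8.87, 11.7, 8.22, 10.97 and 7.64 UMIs per 10,000 in clusters 0 to 6. Mcm3 was at 1.82, 0.859, 2.59, 2.53, 1.60, 2.67 and 1.85. Levels of Mcm6 were 1.48, 0.795, 1.59, 2.15, 1.60, 2.14 and 1.61, with cluster 0 close to cluster 2. Mcm2 (0.668, 0.258, 0.871, 1.44, 0.927, 1.19 and 1.02) and Mcm7 (0.903, 0.358, 1.38, 2.45, 1.74, 1.85 and 1.14) were highest in cluster 3, apart from all others by their intervals and in 3 of 3 libraries, whereas Mcm5 was highest in cluster 5 (1.93; clusters 3 and 1 held 1.83 and 0.283). Mcm4 levels were 0.748, 0.311, 1.06, 1.27, 1.11, 1.18 and 0.832.

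Loading and firing of the helicase need Cdc6 and Cdt1, which load it, and Cdc45 and Gins2, which activate it. These 4 genes together were at 1.23, 0.504, 1.99, 2.003, 1.72, 2.51 and 1.54. Cdc45 was highest in cluster 3 at 0.635 (95% interval 0.578 to 0.696) and had 0.197, 0.0796, 0.335, 0.635, 0.307, 0.398 and 0.343 in clusters 0 to 6. Gins2 went the other way, falling to 0.299 in cluster 3, whereas clusters 5 and 2 held 0.974 and 0.793. Cdt1 separated the 2 blood-like clusters, at 0.635 (95% interval 0.615 to 0.656) in cluster 5 and 0.289 (95% interval 0.258 to 0.323) in cluster 6. Cdc6 was at 0.507 in cluster 5, 0.278 in cluster 6 and 0.0927 in cluster 1.

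Nucleotide supply was represented by the ribonucleotide reductase subunits Rrm1 and Rrm2 and by the thymidylate synthase Tyms. Rrm2, whose transcript is limited to S phase in dividing cells, was at 1.02, 0.314, 2.23, 2.48, 2.46, 2.37 and 1.66 in clusters 0 to 6, so that clusters 2 to 5 held 2.23 or more and cluster 1 0.314. Rrm1, the large subunit, was at 1.03, 0.393, 1.48, 1.26, 1.45, 1.79 and 1.44. Tyms was at 1.30, 0.684, 1.95, 1.87, 1.78, 1.87 and 1.503 and varied little among clusters 2 to 5. The reference holds pseudogenes of Tyms, Pcna, Ccnb1 and Ccnb2, and reads shared with those copies may have been lost from these 4 genes.

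Fork and chromatin members behaved unevenly. Pcna, the sliding clamp, was at 0.406, 0.369, 0.699, 1.03, 0.714, 0.873 and 0.730, with clusters 0 and 1 close together. Slbp, which binds histone mRNA, was at 1.14, 0.820, 1.61, 1.99, 1.59, 1.88 and 1.48 and had the narrowest range of the 40. Uhrf1, which guides DNA methylation at forks, was at 0.697, 0.228, 1.21, 0.265, 1.14, 1.36 and 1.011. Cluster 3 thus held nearly as little Uhrf1 as cluster 1, and by library suffix it was at 0.174, 0.379 and 0.240 in cluster 3. Chaf1b, of the histone chaperone CAF-1, was also low there at 0.341, against 0.700 in cluster 2, where it was highest. Fen1, the flap nuclease, was highest in cluster 5 at 1.26, with 0.524 and 0.290 in clusters 0 and 1.

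Cyclin E starts S phase together with CDK2, and its 2 genes parted. Ccne1 was at 0.282, 0.0535, 0.352, 0.922, 0.800, 0.559 and 0.309 in clusters 0 to 6, highest in clusters 3 and 4. Ccne2 was at 0.136, 0.0523, 0.234, 0.114, 0.233, 0.248 and 0.188 and was low in cluster 3. In cluster 3 Ccne1 was at 1.003, 0.962 and 0.752 and Ccne2 at 0.104, 0.141 and 0.0907 by library suffix. Cluster 2 against cluster 3 was therefore reversed between the 2 genes in all 3 libraries.

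Among G2M members, the cyclins A and B with Cdk1 form the kinase that drives mitosis. Cdk1 was at 2.07, 0.480, 3.30, 1.51, 1.90, 2.69 and 2.36 and was highest in cluster 2. Ccnb1 was at 0.695, 0.175, 1.33, 2.59, 1.31, 1.66 and 1.75 and was highest in cluster 3, by library 2.88, 2.15 and 2.79. The lead of Ccnb1 and the low Cdk1 in the same cluster held in each library, with Cdk1 at 1.52, 1.49 and 1.51 there against 3.58, 3.28 and 3.05 in cluster 2. Ccna2 (0.746, 0.259, 1.61, 1.95, 1.29, 1.70 and 1.60) and Ccnb2 (0.767, 0.214, 1.16, 1.49, 0.944, 1.29 and 1.30) were also highest in cluster 3, in 3 of 3 libraries.

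Mki67, the proliferation marker that coats mitotic chromosomes, was at 1.56, 0.537, 2.47, 2.25, 2.46, 3.004 and 2.99, and Top2a, which untangles them, was at 2.43, 0.585, 3.67, 5.45, 4.41, 3.82 and 3.95. A UMI of Mki67 was found in 27.3, 9.53, 54.2, 61.1, 45.9, 65.3 and 60.5% of the thinned cells of clusters 0 to 6, and of Top2a in 31.0, 11.01, 63.2, 85.8, 57.2, 71.6 and 62.8%. Cluster 3 was the highest for Top2a and not for Mki67.

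The mitotic kinases and their partners were highest in different clusters. Birc5 (survivin), of the chromosomal passenger complex, was at 1.90, 0.606, 3.76, 2.21, 2.80, 3.71 and 3.18. Aurkb, the kinase of that complex, was at 0.535, 0.0999, 0.973, 0.775, 0.818, 1.15 and 1.03, highest in cluster 5. Aurka, the spindle pole kinase, was at 0.434, 0.101, 0.831, 1.22, 0.716, 1.16 and 0.993, highest in clusters 3 and 5, whose intervals overlapped. Plk1 ranged from 0.149 in cluster 1 to 1.04 in cluster 5, and Tpx2, which activates Aurora A, from 0.351 to 2.02 in cluster 2.

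Ube2c, the ubiquitin-conjugating enzyme of the APC/C, was at 3.06, 0.657, 5.50, 5.48, 4.74, 5.23 and 5.15. Its highest cluster was not the same in the 3 libraries. Cdc20, the activator of the APC/C, was at 2.04 in cluster 3 and 0.344 in cluster 1, and the checkpoint kinases Bub1 and Bub1b were at 0.938 and 0.737 in cluster 3 and at 0.112 and 0.119 in cluster 1.

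Of the kinetochore and spindle genes, Cenpf was at 1.62, 0.500, 2.23, 4.98, 2.79, 1.79 and 1.93. Its level in cluster 3, 4.41, 4.96 and 5.82 by library suffix, stood apart from that of the next cluster, 2.79 in cluster 4. Cenpe, the kinetochore motor, was instead lower in cluster 3 (1.24) than in cluster 2 (2.06). Kif23, of the central spindle, was at 0.437, 0.132, 0.625, 0.521, 0.532, 0.432 and 0.369, and Nusap1 at 0.670, 0.144, 0.797, 0.743, 0.812, 0.857 and 0.686. For Nusap1 the pooled level of cluster 0 was close to those of clusters 2 to 6. A UMI of Nusap1 was found in 13.7% of thinned cells of cluster 0, against 22.6 to 28.3% in clusters 2 to 6. Kif11, the spindle motor, ran from 0.139 in cluster 1 to 0.911 in cluster 3.

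Clusters were then compared gene by gene, 6 of them with cluster 2, the largest endothelial cluster, and cluster 5 with cluster 6. A gene was called different when its ratio was at least 2-fold and pointed the same way in each of the 3 libraries, among genes with a mean level of at least 0.05 UMIs per 10,000. The 6 comparisons share cluster 2 and are not independent.

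Against cluster 2, cluster 1 was at least 2-fold lower in 38 of 40 members, where 10.2% of 9993 genes tested were lower and 19.4% higher; no member was higher. The median log2 ratio was -1.93 for S and -2.58 for G2M members, against 0.10 for all genes. Pcna at -0.92 (95% interval -1.09 to -0.76) and Slbp at -0.97 (95% interval -1.09 to -0.86) were the 2 that missed the threshold. The widest gaps were those of Aurkb at -3.29 (95% interval -3.61 to -2.98) and Ube2c at -3.07 (95% interval -3.19 to -2.95). Among S members the widest was that of Rrm2, at -2.83 (95% interval -3.01 to -2.65).

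Cluster 0 was lower than cluster 2 in all 40 members in each library, but mostly by less than 2-fold. How many of all genes were lower in each library, whatever the size, is not given. Rrm2 at -1.13 (95% interval -1.22 to -1.05) and Ccna2 at -1.11 (95% interval -1.21 to -1.02) were called lower, 2 of 40, where 2.81% of genes were lower and 9.04% higher; no member was higher. The median log2 ratio was -0.72 for members and 0.10 for all genes. The share of members lay near the background, and the count moved with the threshold: 28 members were lower at 1.5-fold, and 9 were lower when each cell had equal weight.

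In cluster 3, 2 members were higher (Ccne1 at 1.39 (95% interval 1.27 to 1.51) and Cenpf at 1.16 (95% interval 1.11 to 1.21)) and 5 lower than in cluster 2, with 12.8% and 21.9% of genes called. The 5 were Uhrf1 at -2.19 (95% interval -2.40 to -1.98), Gins2 at -1.41 (95% interval -1.61 to -1.21), Cdk1 at -1.13 (95% interval -1.22 to -1.04), Ccne2 and Chaf1b. Both shares of members lay below the background. With the deposited normalized values averaged over cells, Gins2, Ccne2 and Chaf1b missed 2-fold, at -0.89, -0.69 and -0.64.

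In cluster 4 Ccne1 was higher at 1.18 (95% interval 1.08 to 1.28), 1 of 40 with 13.9% of genes higher and 6.3% lower; none was lower. No member was called in cluster 5 (10.1% of genes higher and 14.9% lower) or in cluster 6 (10.5% and 16.8%). In cluster 5, 18 of 20 S members and 10 of 20 G2M members were above cluster 2 in all 3 libraries. The share of all genes above cluster 2 in all 3 libraries is not given. The median log2 ratio of the S members was 0.26, against -0.03 for all genes.

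Cluster 5, with granulocyte and macrophage genes, exceeded cluster 6, with megakaryocyte genes, in 20 of 20 S members, 18 of them in all 3 libraries. The share of all genes in that direction is not given. The median log2 ratio was 0.47 for S and 0.05 for G2M members, against 0.05 for all genes. Only Cdt1 passed 2-fold, at 1.14 (95% interval 0.97 to 1.31), with 9.25% of genes higher and 8.06% lower, and it was at 0.97 with the deposited normalized values averaged over cells. The 20 S members kept this direction under the other scalings, and G2M members above 0 ranged from 11 to 16.

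Cells were then counted. A cell thinned to 5000 UMIs was called cycling when at least 3 of the 20 S members or at least 3 of the 20 G2M members had a UMI; this is a count of detected genes and assigns no phase. By this count 90.8% of 9472 cells were cycling. The shares were 76.2, 40.9, 97.3, 100.0, 89.3, 98.8 and 85.1% in clusters 0 to 6. Those of clusters 0 and 1 depended strongly on the measure. The phase calls of the scanpy software put 445 of 728 cells of cluster 0 and 741 of 799 cells of cluster 1 in G1. Cluster 1 had 40.9% (95% interval 37.4 to 44.6%, 305 of 745 cells), by library 41.6, 44.7 and 37.0%. Cluster 0 had 76.2% (95% interval 72.9 to 79.2%, 550 of 722 cells), by library 77.6, 80.6 and 66.3%.

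The G2M list separated clusters 0 and 1 from the rest more than the S list did. At least 3 G2M members were found in 42.2, 13.4, 87.0, 100.0, 67.4, 94.3 and 81.6% of cells of clusters 0 to 6, and at least 3 S members in 69.7, 36.8, 94.3, 98.7, 86.1, 97.1 and 79.9%. In cluster 0 the S list alone was found in 33.9% (95% interval 30.5 to 37.5%, 245 of 722 cells) and the G2M list alone in 6.51% (95% interval 4.82 to 8.56%, 47 of 722 cells). Both lists were found in 35.7, 9.26, 84.0, 98.7, 64.3, 92.6 and 76.4% of cells of clusters 0 to 6. In cluster 3 this was 98.7% (95% interval 96.4 to 99.7%, 236 of 239 cells), and 0 of 239 cells held neither list, which allows a share of up to 1.53% (exact Clopper-Pearson).

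**Figure D3:**
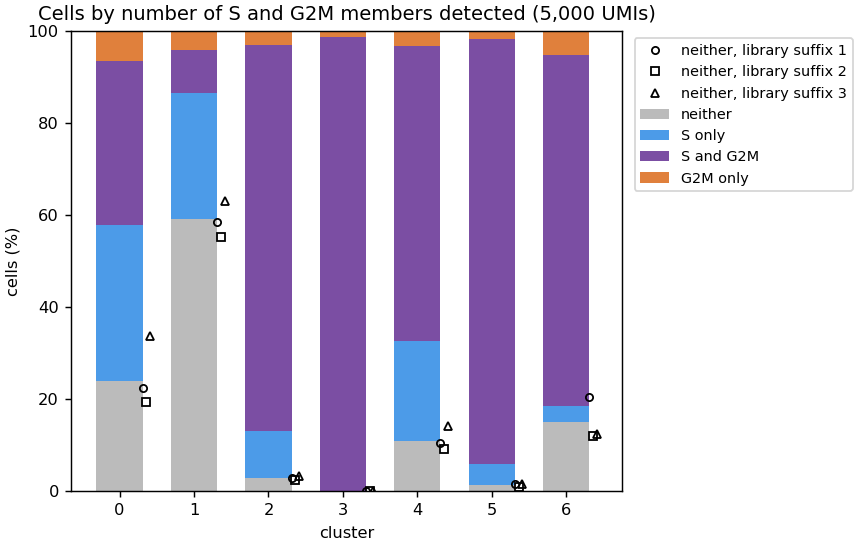
Share of cells (%) of clusters 0 to 6 with at least 3 members of neither list, of the S list only, of both lists or of the G2M list only, at 5000 UMIs per cell; open symbols give the share with neither list by library suffix. Clusters 1, 0 and 6 have the highest shares of cells with neither list, at 59.1, 23.8 and 14.9%.

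The share of cycling cells in cluster 0 was below that of cluster 6 at 5000 UMIs and above it at 10000 UMIs, where the shares were 94.4 and 92.6%. Of all 876 cells with neither list, clusters 1, 0 and 2 held 50.2, 19.6 and 16.4%, and of the cycling cells cluster 2 held 60.9%. In cluster 1, 6.71% (95% interval 5.02 to 8.75%, 50 of 745 cells) had no member of either list, and 143 cells had exactly 3 S members. A further 228 cells of cluster 1 lacked 1 gene to pass, so its share moved with the cut, from 13.02% at 5 members to 71.5% at 2. No cell type here lacks these genes by definition, so a background from free RNA could not be set, and its part in the share of cluster 1 was not tested.

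**Figure D4:**
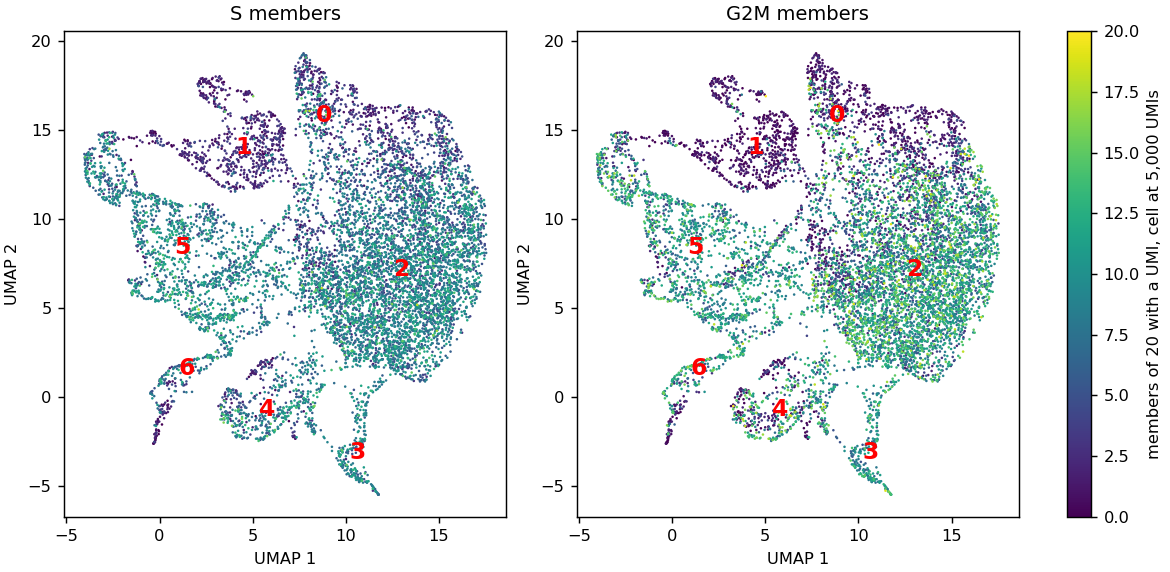
The authors' UMAP of the cells, coloured by the number of the 20 S members (left) and of the 20 G2M members (right) with a UMI at 5000 UMIs per cell, cells with more members drawn on top; red numbers mark cluster medians. Median numbers of G2M members were 2 and 1 in clusters 0 and 1, 6 in cluster 4, and 9 in clusters 2, 3, 5 and 6.

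Cycling shares were also compared within clusters, between cells with and without a UMI of a marker at 5000 UMIs. Runx1, the master regulator of blood emergence from endothelium, was the first. In the arterial cluster 0, 96.2% of 53 cells with and 74.6% of 669 cells without Runx1 were cycling, a difference of 21.6 percentage points (95% interval 11.9 to 26.4). The difference was 18.5, 16.1 and 36.4 points by library, so it held in each, and for the G2M list it was 21.6 percentage points (95% interval 6.73 to 35.1). Before thinning, the cells with Runx1 were deeper, with median UMIs of 19975 and 13938.

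In clusters 2 and 5 the differences were small, but nearly all cells there were cycling, so the shares could differ little. In cluster 2, 96.9% of 64 cells with and 97.3% of 5313 cells without Runx1 were cycling, with median UMIs of 9227.5 and 22656. In cluster 5 it was 99.1% of 660 cells with and 98.6% of 908 cells without. For the G2M list the difference in cluster 2 was 5.27 percentage points (95% interval -4.26 to 10.6), by library -5.44, 8.39 and 15.2. In cluster 5 it was -2.12 points (95% interval -4.70 to 0.304), by library -1.62, -2.44 and -2.05. The summed G2M level in cluster 2 was 31.9 UMIs per 10,000 with and 37.3 without Runx1 (by library log2 ratios of -0.41, -0.26 and 0.24). In cluster 6, 81.4% of 161 cells with and 89.2% of 148 cells without Runx1 were cycling, a difference of -7.82 percentage points (95% interval -16.1 to 0.559) whose interval includes 0. The summed G2M level in cluster 6 was higher with Runx1, at 37.8 against 32.8 UMIs per 10,000 (log2 ratio 0.21, by library 0.13, 0.23 and 0.20). The same held in cluster 0, at 38.1 against 20.7 UMIs per 10,000 (log2 ratio 0.88, by library 0.28, 1.08 and 1.21). In cluster 6 the level was thus higher with Runx1. The share was instead lower in each library, at -11.1, -4.95 and -11.4 points, with a pooled interval that includes 0.

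The other markers were Mpo, C1qb, Kdr and Pdgfra. In cluster 5 all 368 cells with Mpo, a granulocyte enzyme, were cycling, against 98.4% of 1200 without. For C1qb, a macrophage gene, the difference was -0.527 percentage points (95% interval -1.81 to 0.662). With 98.8% of cluster 5 cycling, these shares could differ little. The summed S level was 24.8 UMIs per 10,000 with and 27.4 without C1qb (by library log2 ratios of -0.15, -0.09 and -0.17). The G2M level was 38.0 against 35.5 (0.04, 0.19 and 0.09). With Mpo the S level was higher, at 27.6 against 25.8 (0.10, 0.11 and 0.09), and the G2M level was 35.5 against 37.1 (-0.04, -0.19 and 0.0006). In cluster 6, 87.8% of 139 cells with and 82.9% of 170 cells without Kdr were cycling, with differences of -0.930, 8.84 and 0.735 points by library. In the stromal cluster 4, 97.5% of 121 cells with and 86.7% of 391 cells without Pdgfra were cycling, a difference of 10.8 percentage points (95% interval 5.22 to 15.1). For the G2M list it was 8.08 percentage points (95% interval -1.89 to 17.1), and 2.72, 16.2 and -2.61 by library.

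The genes that start and stop the cycle were followed from lists of 9 G1 cyclins, CDKs and pocket proteins, 10 E2F factors and mitotic activators, 13 inhibitors and arrest genes, 19 other replication genes, 19 other mitotic genes and 7 cytokinesis genes. In cluster 1 against cluster 2, 19 of 19 other replication genes, 16 of 19 other mitotic genes and 6 of 7 cytokinesis genes were called lower and none higher. Of 12 inhibitors tested, 7 were higher and 1 lower, and of 9 E2F factors and activators 6 were lower, where 19.4% of all genes tested were higher and 10.2% lower. Tk1, thymidine kinase, was at -2.69 (95% interval -2.99 to -2.40), the fork protein Clspn at -2.55 (95% interval -2.84 to -2.28), and Gins1 and the dUTPase Dut at -2.46 (95% interval -2.93 to -2.03) and -2.45 (95% interval -2.58 to -2.32). The spindle checkpoint kinase Ttk was at -2.93 (95% interval -3.44 to -2.46), Ccnf at -2.86 (95% interval -3.34 to -2.43), Cdca8 at -2.72 (95% interval -2.89 to -2.55) and Tacc3 at -2.65 (95% interval -2.89 to -2.43). Prc1, Anln, Racgap1 and Kif20a, which act in cytokinesis, were at -2.54, -2.54, -2.46 and -2.18. The activators Foxm1, E2f8 and E2f1 were at -2.22 (95% interval -2.71 to -1.76), -2.12 (95% interval -2.72 to -1.59) and -1.56 (95% interval -1.92 to -1.23).

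The inhibitor that was high differed from cluster to cluster. Cdkn1a (p21), a CDK inhibitor induced by p53, was at 0.217, 6.98, 0.330, 0.272, 0.735, 0.270 and 0.136 in clusters 0 to 6, and by library at 7.22, 5.73 and 7.50 in cluster 1. No other cluster exceeded 1.08 in any library. Cdkn1c (p57) was at 13.2, 1.18, 3.20, 0.605, 11.2, 0.736 and 0.507, high in clusters 0 and 4. Cluster 0, with low member levels, and cluster 4, with high ones, therefore shared a high Cdkn1c. Cdkn2d (p19) was at 0.428, 0.240, 0.309, 0.196, 0.349, 0.439 and 3.13, with cluster 6 at 3.34 (95% interval 3.27 to 3.41) against cluster 2. Cdkn2a, of the Ink4a/Arf locus, reached 0.195 (95% interval 0.171 to 0.222) in cluster 4, by library 0.326, 0.0482 and 0.155, and was at 0.0336 in cluster 3 and at 0.0202 or below in the others. Cdkn2b (p15) was at 0.122 (95% interval 0.0999 to 0.148) in cluster 1 and 0.0862 (95% interval 0.0703 to 0.105) in cluster 4, and its highest level elsewhere was 0.00464.

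The drivers of G1 also changed with the cluster. Ccnd1 (cyclin D1) was at 0.654, 1.73, 3.07, 0.376, 2.24, 0.730 and 0.312, highest in cluster 2, and cluster 6 stood at -3.30 (95% interval -3.46 to -3.14) against it. Ccnd3 (cyclin D3) was at 2.43, 1.09, 2.41, 3.28, 2.08, 2.28 and 5.35, highest in cluster 6. Ccnd3 and Cdkn1c were added to the genes named after their values were seen. Cdk6, the partner of D cyclins in blood cells, was at 0.802 in cluster 5, with 0.745, 0.930 and 0.782 by library, and at most 0.264 elsewhere. The pocket protein Rb1 was at 0.629 and 0.358 in clusters 6 and 1, compared with 0.113 in cluster 2. In cluster 3 Cdk2 was at 0.0869 (-1.96 (95% interval -2.35 to -1.60) against cluster 2), and Mybl2 (B-MYB) at 1.57 (2.61 (95% interval 2.51 to 2.70)).

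**Figure D5:**
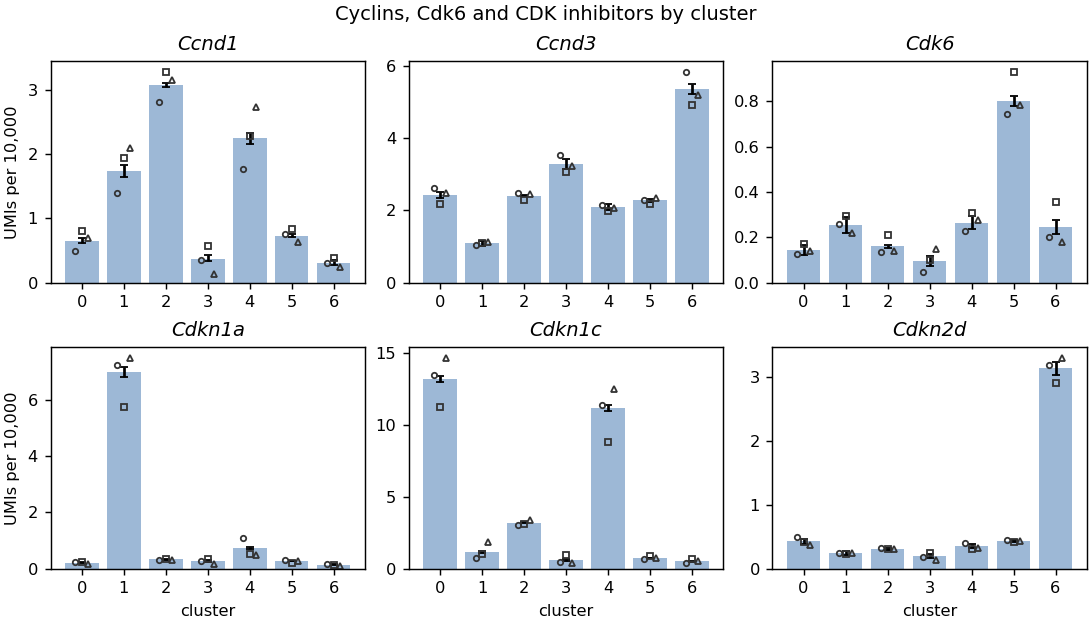
Levels of 3 drivers of G1 (Ccnd1, Ccnd3 and Cdk6) and of 3 CDK inhibitors (Cdkn1a, Cdkn1c and Cdkn2d) in clusters 0 to 6, in UMIs per 10,000 UMIs; bars give the cluster, error bars the 95% Poisson interval and symbols the library suffixes 1 (circle), 2 (square) and 3 (triangle). Cdkn1a is at 6.98 in cluster 1, Cdkn1c at 13.2 and 11.2 in clusters 0 and 4, and Cdkn2d at 3.13 in cluster 6.

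In the other 6 comparisons few genes of the replication, mitotic and cytokinesis lists were called. In cluster 0 these were Orc1 and Mcm10, lower, and 3 of 10 inhibitors tested were higher, with 2.81% of all genes lower and 9.04% higher. In cluster 3, 3 of 19 replication genes were higher (Mcm10, Pold1 and Dut), 2 of 10 E2F factors and activators were higher (E2f1 and Mybl2), and 4 of 10 inhibitors lower, with 12.8% of all genes higher and 21.9% lower. In clusters 4 and 5 against cluster 2 no gene of these 3 lists was called; in cluster 6 Cdc25b and Cit were higher. Cluster 5 against cluster 6 had Hells and Ect2 higher and Cit lower. These genes were singled out after their values were seen.

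Over all 9472 thinned cells, the genes outside the list with log levels most like the summed S members were Npm1, H2afz, Hmgb2, Ran and Pclaf (Pearson r of 0.560, 0.522, 0.489, 0.487 and 0.461). For the G2M members they were Hmgb2, H2afz, Cks2, Cdca8 and Tuba1b (0.761, 0.611, 0.567, 0.548 and 0.526). These are descriptions across cells that share libraries, depth and clusters. Hmgb2, a chromatin protein, was at 7.38, 2.69, 14.2, 19.4, 13.2, 15.3 and 10.7 UMIs per 10,000 in clusters 0 to 6. The opposite pattern was strongest for Tm4sf1, at 3.71, 17.7, 0.358, 0.192, 1.02, 0.165 and 0.197, with r of -0.392 for S and -0.401 for G2M members.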

How the data were processed

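The members and gene lists were chosen with earlier results of these data known. Per the labels, libraries were made with 10x Genomics v3 chemistry. The authors aligned reads to mm10 and counted UMIs with Cell Ranger 3.1.0, with batch-effect removal on aggregation; the submitters' processing notes also name Seurat 3.1.5. The gene annotation was not given in the sources used here, and names came from GENCODE M21 on GRCm38 (27645 of 27998 rows). The authors' methods kept singlets with at least 5000 UMIs, yet 90 deposited cells had fewer (lowest 4393). The authors deposited raw UMI counts, the natural log of 1 plus counts per 10,000, which equals the counts rescaled to within 6.2e-15 and served as an alternative, and a score file with UMAP coordinates and Leiden cluster numbers.

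UMIs were summed by cluster and library suffix; levels are UMIs per 10,000 with 95% Poisson intervals, log2 ratios have exact conditional binomial intervals, and shares Clopper-Pearson intervals. Thinning drew 5000 UMIs per cell without replacement (seed 1). PCR duplicates are removed by UMIs, and intervals and limits cover counting error only. The ratio and calling steps were checked on simulated counts. A count test on sums per pool, planned only if cells could be tied to pools, was not run. Clusters can be set side by side within each library suffix, and this was done as values with no P value, since the clusters were drawn with these genes. All 40 members could be named; full values were planned for the 12 with the most UMIs, Mki67, Ccne1, Ccne2 and those whose highest cluster differed from their list's; of each pathway list the 4 genes with the largest ratio past 2-fold. Python 3.11.15, scipy 1.17.1 and scanpy 1.11.5 were used.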

Additional observations from a re-analysis of the deposited data

Results flagged for a closer look

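The share of cycling cells differed in direction between clusters for 2 genes, in every library suffix of each cluster; the difference between the clusters was not tested. Cells with a Runx1 UMI were cycling at a share that was 21.6 percentage points above that of cells without in cluster 0, and the difference was -7.82 points in cluster 6, where its interval included 0, with 18.5, 16.1 and 36.4 and -11.1, -4.95 and -11.4 points by library. The share was lower with Cdkn1c in cluster 2, at -2.80 points, and higher in cluster 4, at 17.7 points, with -3.73, -2.19 and -2.55 and 16.8, 23.3 and 10.9 by library. For the G2M list the differences were -5.58 percentage points (95% interval -14.5 to 3.55) for Runx1 in cluster 6 and 5.77 percentage points (95% interval -5.20 to 17.4) for Cdkn1c in cluster 4, and the summed G2M level in cluster 6 was higher with Runx1 (log2 ratio 0.21). The comparison for Cdkn1c was chosen after its levels had been seen. In cluster 4 only 91 cells lacked a Cdkn1c UMI, and in cluster 0 only 53 cells had Runx1.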

How the results depend on the processing

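Cluster 1 had the lowest share of cycling cells in all settings tried, and cluster 0 the next lowest in all but that at 10000 UMIs, where cluster 6 was lower. The share in clusters 0 to 6 was 90.6, 71.5, 99.0, 100.0, 94.0, 99.5 and 91.3% with 2 members, 51.4, 13.02, 92.2, 100.0, 80.5, 97.5 and 80.9% with 5, 94.4, 74.2, 99.6, 100.0, 95.8, 99.8 and 92.6% at 10000 UMIs (268 cells of cluster 1 left), 96.0, 67.3, 99.6, 100.0, 96.9, 99.6 and 97.1% without thinning, and 38.9, 7.26, 85.9, 100.0, 72.4, 96.6 and 74.8% by scanpy's phase calls. Leaving out the top 1% of cells by UMIs moved no share beyond its interval. Without 1 library suffix the shares ran 73.3 to 79.1, 39.8 to 42.7, 97.1 to 97.4, 100.0 to 100.0, 88.3 to 90.3, 98.5 to 99.0 and 82.2 to 88.1%. The summed level with equal weight for each cell was 13.4, 5.86, 21.6, 25.6, 20.8, 25.7 and 18.9 UMIs per 10,000 for S and 18.1, 4.25, 34.2, 35.8, 29.7, 34.5 and 32.2 for G2M members. With median-of-ratios scaling it was 13.7, 6.41, 21.8, 27.2, 19.4, 27.7 and 20.4 for S and 20.9, 5.82, 36.6, 42.7, 30.6, 38.7 and 38.5 for G2M, so that the order of clusters 2, 5 and 6 (G2M) and of 4 and 6 (S) turned; this scaling moved all genes by 0.16, -0.11, 0.11 and 0.14 (log2) in clusters 3, 4, 5 and 6 against cluster 2. Without 1 library suffix the ranges were 14.4 to 14.8, 6.37 to 7.06, 21.9 to 22.3, 23.5 to 25.8, 21.1 to 21.9, 26.2 to 26.3 and 18.5 to 19.2 for S and 21.6 to 23.0, 5.07 to 7.15, 36.2 to 38.4, 38.1 to 40.3, 33.5 to 33.9, 36.01 to 37.3 and 33.8 to 38.1 for G2M. Members lower in cluster 0 than in cluster 2 numbered 28 at 1.5-fold, 0 at 3-fold, 6 with median-of-ratios scaling, 9 with equal weight for each cell, and 2 to 4 without 1 library, 4 without suffix 1 or suffix 2. In cluster 3 they were 6 higher and 9 lower at 1.5-fold, 0 and 1 at 3-fold, 4 and 2 with median-of-ratios scaling, 2 lower with equal weight, and 3 higher and 3 to 5 lower without 1 library (3 lower without suffix 1 or suffix 3). At 3-fold 0 members were called in cluster 4 and in cluster 5 against 6; at 1.5-fold 2 members were lower in cluster 4, 1 higher in cluster 5, 3 lower in cluster 6, and 6 higher in cluster 5 against 6, and with equal weight 0 in the last. In cluster 1, 35 to 40 members were lower in every setting. For splits, the difference at 2 UMIs was 2.68 points for Runx1 in cluster 2, where without 1 library it ran -5.47 to 2.66, and for Kdr in cluster 6 it ran -0.808 to 6.91, turning without suffix 2. In cluster 5 Runx1 ran -0.350 to 1.34 and Mpo 1.34 to 2.01, with 0 of 368 cells not cycling. Cdkn1c in cluster 4 gave 5.96 points at 2 UMIs. The cause of these changes was not tested. Cluster 1 had the fewest UMIs per cell, and 54 of its cells were too shallow to be thinned to 5000 UMIs. No paired test was run. Every cluster held cells of all 3 library suffixes, so clusters could be paired by suffix, and they were compared within each suffix as values only. The clusters were drawn with these genes, so a difference between them is a description. The count tests by pool, planned only for cells tied to pools, were not run.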

Other observations

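The comparisons given here were chosen after values had been seen, and the share of all genes that differed is not given beside them. Within clusters, cells with neither list (under 3 members of each) were set against cells with both. In the arterial cluster 0 the 172 cells with neither list had more Cdkn1c (19.5 against 9.28 UMIs per 10,000, log2 ratio 1.07 (95% interval 1.01 to 1.13)) and more of the arterial genes Dll4 (2.50 against 1.26) and Gja5 (6.59 against 3.98) than the 258 with both. In cluster 2 the 144 cells with neither list had more Gja4 (5.64 against 0.676), Hey1 (1.51 against 0.278) and Cdkn1c (9.47 against 2.83) than the 4517 with both, in each library. Gja4 and Hey1 are arterial genes. Of the arterial list only these 2 are given for cluster 2, and only Dll4 and Gja5 for cluster 0. How the rest of the list went is not shown, so these genes do not describe the arterial list as a whole. Cells with neither list were shallower before thinning, with median UMIs of 13635.5 against 16899.5 in cluster 0 and 14724.5 against 23953 in cluster 2. A split by detection of Cdkn1c cannot decide this in cluster 0, because only 47 cells lacked it and the split does not see its level. The G2M list was found in 42.2% of 675 cells with and 42.6% of 47 cells without Cdkn1c. The difference in cycling cells was -2.72 percentage points (95% interval -13.8 to 12.01). In other splits, the G2M list was found in 39.6% of 583 cells with and 53.2% of 139 cells without Gja5 in cluster 0, and in 84.1% of 3617 cells with and 93.0% of 1760 cells without Cdkn1c in cluster 2. The venous and capillary receptor gene Aplnr went the other way in cluster 2, with 87.9% of 4187 cells with and 83.9% of 1190 cells without.

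In cluster 6 the 46 cells with neither list had more transcripts of the megakaryocyte genes Ppbp, Gp9 and Pf4 than the 236 with both. Ppbp was at 32.0 against 3.499, Gp9 at 13.5 against 3.44 and Pf4 at 352 against 127 UMIs per 10,000. Itga2b and Gp1bb of the same list are not given. Of the cells of cluster 6, 70.8% of 137 cells with and 96.5% of 172 cells without Ppbp were cycling, a difference of -25.7 percentage points (95% interval -34.4 to -17.3), and by library -36.5, -21.5 and -16.8 points. The cardiac actin gene Actc1 moved with it, at 3.76 against 0.139, and its part in this was not tested. Rb1 (1.23 against 0.532), Cdkn2d (5.82 against 2.66) and Ccnd3 (8.71 against 4.77) were also higher in cells with neither list.

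In cluster 4 the 55 cells with neither list held Cdkn2a at 1.76 against 0.0326, Cdkn2b at 0.735 against 0.0181 and Cdkn1a at 3.38 against 0.434, and the matrix genes Dcn at 7.25 against 0.594 and Col1a1 at 16.6 against 4.23, each against the 329 cells with both. In cluster 1 the 440 cells with neither list had Cdkn1a at 7.39 against 3.497 and C1qa, a macrophage gene, at 2.44 against 0.545. The part of macrophage RNA in the low member levels was not tested. The G2M list was found in 11.2% of 517 cells with and 18.4% of 228 cells without Cdkn1a in cluster 1, and in 17.3% of 289 cells with and 10.96% of 456 cells without Ccnd1. Cycling cells by either list differed by -3.58 percentage points (95% interval -11.5 to 4.28) for Cdkn1a and by 0.387 percentage points (95% interval -7.00 to 7.85) for Ccnd1, both with intervals that include 0.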
